A study of Mus musculus with 12 samples.

Results

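Chemokines are small secreted proteins that direct the movement of leukocytes and microglia through G protein-coupled receptors. Some are made steadily by neurons, glia and vessels of the nervous system, such as Cx3cl1, Cxcl12 and Cxcl14. Others, such as Ccl2, Ccl5 and Cxcl10, are low in healthy tissue and are induced by NF-kB or interferon signalling, so they are widely read as signs of inflammation. The 8 genes described here were listed by symbol and found by their Entrez IDs among the 27179 gene IDs of the count data. They are 7 ligands (Cx3cl1, Cxcl10, Cxcl12, Cxcl14, Cxcl16, Ccl2 and Ccl5) and Cxcr4, the signalling receptor of Cxcl12.

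Whole mouse retinas were profiled by stranded poly(A) RNA sequencing in 4 groups of 3 libraries. The groups were retinas with ABCA1, a lipid efflux transporter, deleted in glia (KO) at 12 months, control retinas at 12 months, KO retinas at 3 months and control retinas at 3 months. The labels name the KO both as a glial and as an astrocyte knockout. They give neither the promoter that drove the deletion nor the alleles of the control mice, and they do not say whether each library came from 1 animal. The p-values therefore measure the spread between these libraries, which may be technical. Rod markers were abundant in every library, with 8 genes summing to between 44930 and 53430 CPM scaled by TMM factors (scaled CPM). Library totals ran from 29027099 to 30438026 counts. Abca1 itself, read over all exons and all cells, was not called lower in KO retina (log2 fold change 0.24 ± 0.14 SE at 12 months and 0.21 ± 0.14 SE at 3 months, edgeR adjusted p = 0.65 and 0.70). Replicate 1 of 12-month KO and replicate 2 of 3-month control stood apart from their groups. Lens markers summed to 35.3 to 4037 scaled CPM in 3-month control libraries, against at most 25.8 in any other library, and skeletal muscle markers to 83.4 to 91.8, against 12.4 to 18.4. Their part in comparisons with 3-month control was not tested. The female X-inactivation RNA Xist had 1583 to 2519 counts in the 12-month KO libraries, against 2 to 18 counts in each of the other 9 libraries. The Y-linked RNA Ddx3y had 1001 to 1337 counts in the same 12-month KO libraries, against 916 to 1136 counts in 12-month control, so RNA of both sexes was present in 12-month KO. At 12 months genotype and this difference in the sex of the tissue cannot be told apart.

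Between KO and control, none of the 8 genes passed the test across all genes at either age. Only 5 of the 8 had enough counts to be tested (Cx3cl1, Cxcl12, Cxcl14, Cxcl16 and Cxcr4), and of these 0 of 5 passed an adjusted p of 0.05 at 12 months, by edgeR, DESeq2 or limma-voom alike. Across all 16475 genes tested, 0.212% were called at 12 months by edgeR. At 3 months 0 of 5 passed by any of the 3 tools, against 0.225% of all genes by edgeR. At an unadjusted p below 0.05 (edgeR), 2 of the 5 stood out at 12 months, Cxcl12 higher and Cxcr4 lower, where 8.7% of all genes did. At 3 months 0 of 5 did, against 7.5% of all genes, and no gene had groups free of overlap, where 15.6% of all genes did. The induced ligands Ccl2, Ccl5 and Cxcl10 were near the limit of detection in every group.

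The 7 ligands among the 8 genes supplied nearly all chemokine reads. They gave 95.9% to 97.4% of the counts of the 41 chemokine ligands listed for mouse. Of these 7, the induced Ccl2, Ccl5 and Cxcl10 had at most 8 counts each in any library. Cx3cl1 with Cxcl14 alone gave 80.7% to 86.1% of the counts of the 41. Of the 41 ligands, 7 had no count in any library and 30 had fewer than 50 counts over all 12. Per kilobase of the longest GENCODE transcript, Cxcl14 had the highest level in 12-month KO, 42.9 ± 1.25 scaled CPM per kb (SD, n = 3), followed by Cx3cl1 at 32.3 ± 2.18 scaled CPM per kb (SD, n = 3). Cxcl12 (4.25 ± 0.0815 scaled CPM per kb) and Cxcl16 (3.68 ± 0.127 scaled CPM per kb) came next. These orders depend on the length used: with the mean transcript length Cx3cl1 stood at 109.9 scaled CPM per kb, above Cxcl14 at 47.6, and with the union of exons Cxcl16 (3.28) stood above Cxcl12 (2.93). Ccl5 (0.301 ± 0.00419), Ccl2 (0.122 ± 0.123), Cxcr4 (0.118 ± 0.0600) and Cxcl10 (0.0502 ± 0.0349 scaled CPM per kb) lay far lower. Ccl2 and Cxcr4 do not differ beyond their spread in that order.

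**Figure D1:**
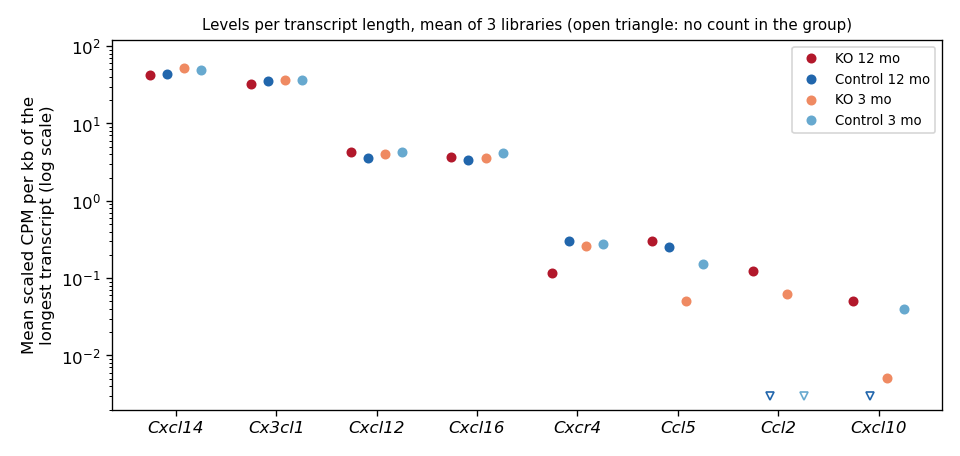
Mean scaled CPM per kilobase of the longest transcript (log scale) for the 8 genes in the 4 groups, 3 libraries each; an open triangle marks a group with no count. Cxcl14 and Cx3cl1 lie highest in every group, and Cxcr4, Ccl5, Ccl2 and Cxcl10 lie below 1.

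Cx3cl1 (fractalkine; Entrez 20312, GRCm38 chromosome 8 from 94772180 to 94782427) is a membrane-bound neuronal chemokine whose receptor Cx3cr1 is carried by microglia. At 12 months its scaled CPM was 104, 115 and 102 in KO retina, against 117, 116 and 118 in control retina. The 3 KO values lay below the 3 control values, as 8.33% of the genes tested did, and replicate 2 of KO lay beside the control values. The log2 fold change was -0.13 ± 0.07 (SE; 95% interval -0.27 to 0.02; edgeR adjusted p = 0.63). At 3 months Cx3cl1 had 121, 118 and 124 scaled CPM in KO retina, against 123, 123 and 113 in control, and the groups overlapped (log2 fold change 0.02 ± 0.07, SE). Its receptor Cx3cr1 had 4.59 to 4.99 scaled CPM in 12-month KO and 5.21 to 5.91 in 12-month control, with a log2 fold change of -0.19 ± 0.16 (SE, edgeR adjusted p = 0.77).

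Cxcl12 (SDF-1; Entrez 20315, chromosome 6 from 117168535 to 117181368) binds Cxcr4 and holds stem cells and leukocytes in place. Its scaled CPM at 12 months was 24.3, 23.4 and 24.1 in KO retina, against 21.0, 19.3 and 20.5 in control retina. All 3 KO values lay above all 3 control values, as 8.32% of the genes tested did. The log2 fold change was 0.24 ± 0.11 (SE; 95% interval 0.02 to 0.47), with an unadjusted p of 0.035 and an adjusted p of 0.54 (edgeR). At 3 months the values were 24.6, 23.4 and 19.6 in KO retina, against 22.2, 22.1 and 26.9 in control, and the groups overlapped (log2 fold change -0.08 ± 0.11, SE). Cxcl12 averaged 23.9 ± 0.458 scaled CPM in 12-month KO and 22.5 ± 2.61 in 3-month KO, and 20.2 ± 0.870 in 12-month control and 23.7 ± 2.73 in 3-month control (SD, n = 3 each), so 12-month control was the lowest group. The KO effect at 12 months minus that at 3 months was 0.32 ± 0.15 on the log2 scale (SE), with an adjusted p of 0.999 (edgeR). For that difference 0 of 5 genes passed by any of the 3 tools, where edgeR called 0.127% of all genes, and Cxcl12 was the 1 gene of the 5 with an unadjusted p below 0.05 (4.33% of all genes).

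Cxcl14 (Entrez 57266, chromosome 13 from 56288643 to 56296811), a ligand of epithelia and neurons, did not differ by genotype. At 12 months it had 81.0, 76.9 and 77.4 scaled CPM in KO retina, against 83.8, 73.6 and 81.6 in control. At 3 months it had 101, 87.1 and 98.1 scaled CPM in KO retina, against 90.5, 87.1 and 95.1 in control. Groups of the same age overlapped at both ages, with log2 fold changes of -0.02 ± 0.08 and 0.07 ± 0.08 (SE). The 95% intervals, from -0.18 to 0.14 at 12 months and from -0.09 to 0.23 at 3 months, give the range of genotype differences that these libraries allow.

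Cxcl16 (Entrez 66102, chromosome 11 from 70454389 to 70459984) is a transmembrane ligand of Cxcr6 that also binds oxidized lipoprotein. At 12 months its scaled CPM was 9.61, 9.85 and 10.3 in KO retina, against 9.95, 9.42 and 8.00 in control. At 3 months it was 9.58, 10.4 and 8.59 in KO retina, against 10.2, 12.6 and 10.98 in control. The groups overlapped at both ages, with log2 fold changes of 0.12 ± 0.13 and -0.24 ± 0.13 (SE, edgeR adjusted p = 0.82 and 0.68). The gene overlaps Zmynd15 on the opposite strand over 552 bases, and the strand setting of the counting is not given in the sources used here. Cxcr6, its receptor, had at most 10 counts in any library.

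**Figure D2:**
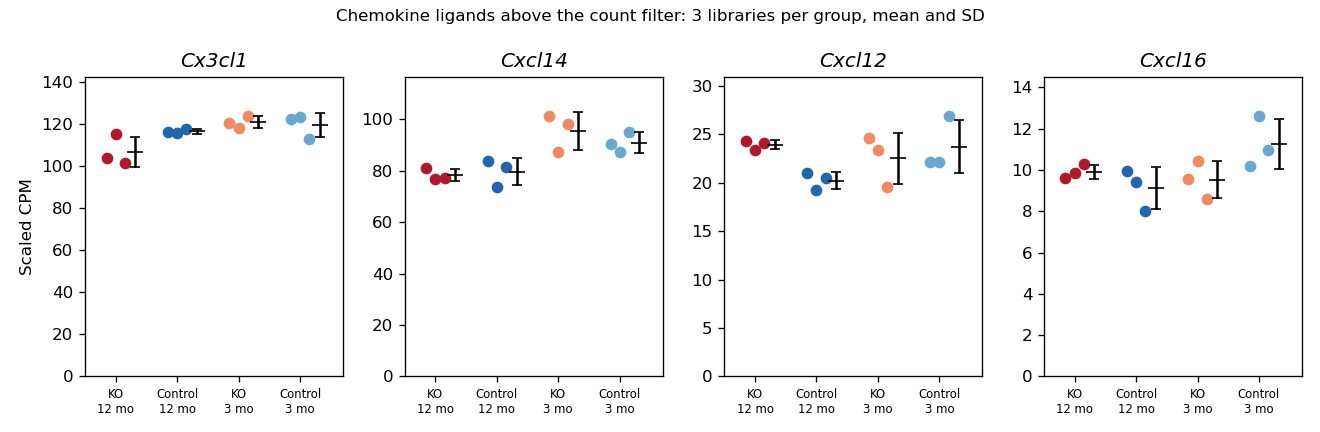
Scaled CPM of Cx3cl1, Cxcl14, Cxcl12 and Cxcl16 in each library (points), with the mean and SD of the 3 libraries beside them. In Cxcl12 the 3 KO points at 12 months (23.4 to 24.3) lie above the 3 control points (19.3 to 21.0), and in Cxcl14 both 12-month groups lie below both 3-month groups.

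Cxcr4 (Entrez 12767, chromosome 1 from 128588199 to 128592299) was the lowest of the 5 genes tested and had the largest fitted difference. It had 5, 10 and 4 counts in 12-month KO retina, against 13, 16 and 19 counts in 12-month control. The groups did not overlap, and replicate 2 of KO lay closest to control. Its level was 0.212 ± 0.108 scaled CPM in KO and 0.538 ± 0.104 scaled CPM in control (SD, n = 3 each). The log2 fold change was -1.32 ± 0.49 (SE), a ratio of 0.400 with a 95% interval from 0.197 to 0.810. The unadjusted p was 0.014 and the adjusted p 0.44 (edgeR), and the exact permutation p (two-sided) was 0.1, the smallest that 3 against 3 libraries allow. Of all genes tested, 8.33% had 3 KO values below all 3 control values at 12 months. At 3 months Cxcr4 had 15, 14 and 12 counts in KO retina, against 13, 18 and 14 in control, and the groups overlapped. Its log2 fold change was then -0.12 ± 0.44 (SE), and the KO effect at 12 months minus that at 3 months was -1.20 ± 0.66 (SE, edgeR adjusted p = 0.999). Ackr3, the atypical receptor that clears Cxcl12, had 2.49 to 2.94 scaled CPM in 12-month KO and 2.12 to 3.27 in 12-month control (log2 fold change -0.06 ± 0.23, SE). Endothelial markers, of cells that can carry Cxcr4, summed to 273 to 310 scaled CPM in 12-month KO and 284 to 295 in 12-month control, and leukocyte markers to 5.37 to 6.39 in 12-month KO and 4.49 to 7.03 in 12-month control. Their part in the Cxcr4 values was not tested. In whole tissue, fewer cells of a type and less RNA per cell cannot be told apart.

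**Figure D3:**
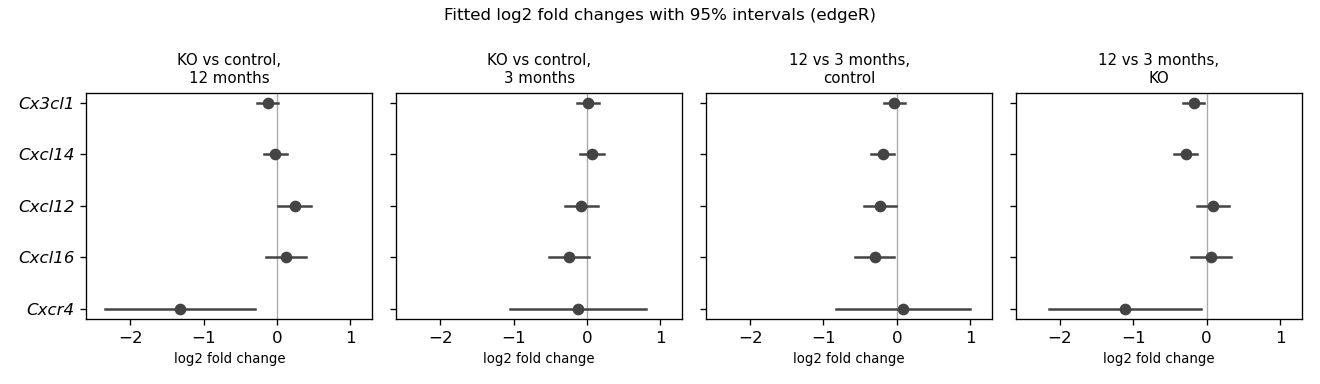
Fitted log2 fold changes (points) with 95% intervals (lines) for the 5 genes tested in 4 comparisons, from edgeR. No point passed an adjusted p of 0.05, and the intervals of Cxcr4 are the widest, from -2.34 to -0.30 for KO against control at 12 months.

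The induced ligands gave no more than 8 counts in any library, and most small counts were even: 60.7% to 70.2% of values from 1 to 20 per library, against 48.6% to 50.7% of larger ones. Both mates of 1 fragment may therefore stand in a count as separate reads. Ccl2 (MCP-1; Entrez 20296, chromosome 11 from 82035577 to 82037452), which draws monocytes through Ccr2, had 4, 8 and 0 counts in 12-month KO retina, against 0, 0 and 0 in 12-month control. At 3 months it had 2, 4 and 0 counts in KO retina, against 0, 0 and 0 in control. Thus 4 of 6 KO libraries and 0 of 6 control libraries had a Ccl2 read, and every count was even. How many genes this low show such a split over both ages was not counted. At 12 months alone, 143 of 2051 genes with 10 to 50 counts over the 12 libraries had counts in KO and none in control. The sum at 12 months was 12 counts in KO (exact Poisson 95% interval 6.20 to 21.0) and 0 in control (0 to 3.69). These intervals cover counting error only and take each count as a separate fragment. If both mates were counted, the intervals are too narrow. A count of 0 in 1 library of this depth allows up to 0.101 scaled CPM (a floor of 3 counts). This floor is for 1 library and not for a group mean. The 12-month KO libraries had 0.132, 0.269 and 0 scaled CPM (mean 0.134). The exact permutation p (two-sided) was 0.4 at each age, and without a filter on low counts the edgeR adjusted p was 0.57 at 12 months and 0.77 at 3 months. Ccl2 lies within Gm17268 on the opposite strand, which is not among the counted genes. Ccr2 had 0 counts in all 6 KO libraries and 0 to 4 counts in control libraries.

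Cxcl10 (IP-10; Entrez 15945, chromosome 5 from 92346638 to 92348889) recruits T cells through Cxcr3 and is induced by interferon and NF-kB. It had 2, 6 and 2 counts in 12-month KO retina, against 0, 0 and 0 in 12-month control. At 3 months the direction was the other way, with 0, 1 and 0 counts in KO retina, against 4, 0 and 4 in control. The 12-month groups did not overlap, as 5.36% of the 2051 genes with 10 to 50 counts over the 12 libraries did in that direction. By exact permutation (two-sided) the p was 0.1 at 12 months and 0.4 in the younger retinas, and without a filter on low counts the edgeR adjusted p was 0.58 and 0.78. Cxcl10 lies wholly within Art3 on the opposite strand, whose counts were 26, 18 and 25 in 12-month KO, against 28, 13 and 30 in 12-month control.

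Ccl5 (RANTES; Entrez 20304, chromosome 11 from 83525778 to 83530518), a product of T cells and activated glia, had 6, 6 and 6 counts in 12-month KO retina, against 8, 5 and 2 in 12-month control. At 3 months it had 0, 3 and 0 counts in KO retina, against 7, 1 and 1 in control. The groups overlapped at both ages, and the exact permutation p was 0.7 for the older and 0.5 for the younger retinas.

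Rarely read genes as a class were seen more often in 12-month KO. Between 18887 and 19144 genes had a count in its libraries, against 18541 to 18725 in the other 9. Among the 2051 genes with 10 to 50 counts in all, the sum was higher in KO than in control for 50.9% at 12 months and lower for 40.1%. At 3 months it was higher in KO for 41.8% and lower for 47.4%. Of the 164 such genes with no count in 12-month control, 143 had one in 12-month KO, as Ccl2 and Cxcl10 did. In the opposite direction, 102 of 123 genes with no count in 12-month KO had one in control. Markers of cornea and conjunctiva, tissues next to the retina in the eye, were also higher in 12-month KO. The 7 genes summed to 4.82 to 8.41 scaled CPM in 12-month KO and 1.82 to 2.44 in 12-month control, and to 3.01 to 8.10 in 3-month KO and 4.12 to 31.5 in 3-month control. Of the 6 tested, 4 did not overlap between the 12-month groups and were higher in KO, and 1, the mucin gene Muc4, passed (log2 fold change 5.33 ± 0.82, SE, edgeR adjusted p = 0.0038). Of all genes tested, 8.32% did not overlap in that direction and 0.212% passed in either direction. The part of either pattern in the counts of Ccl2 and Cxcl10, or in the other 12-month values, was not tested.

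**Figure D4:**
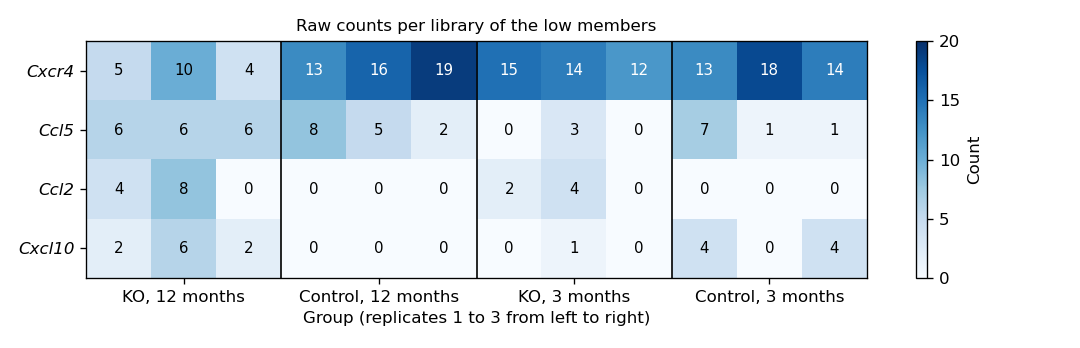
Raw counts per library of the 4 low genes, with replicates 1 to 3 of each group from left to right and the count printed in each cell. Cxcr4 is lowest in 12-month KO (4 to 10 counts), and Ccl2 has counts in KO libraries and in none of the 6 control libraries. The share of genes as low as Ccl2 with such a split over both ages was not counted.

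Promoters were compared because they show which of these genes carry the letters read by inflammatory factors. RefSeq (GRCm38.p6) gave a start-site sequence for 5 of the 8 genes, running from 250 bases before the start to 50 from it. For Cxcl14 the start of that window lies inside the gene span given above, downstream of its 5′ end, so the whole Cxcl14 window is within the gene. Cxcl10, Cx3cl1 and Cxcl14 are shown, the first as the inducible gene and the other pair as the most abundant ones. Capitals mark matches on either strand to an NF-kB motif (GGGA, any 2 bases, T, any 1 base, CC) or an interferon response motif (GAAA, any 2 bases, GAAA).
Cxcl10 promoter, chr5:92348840-92349139, minus strand: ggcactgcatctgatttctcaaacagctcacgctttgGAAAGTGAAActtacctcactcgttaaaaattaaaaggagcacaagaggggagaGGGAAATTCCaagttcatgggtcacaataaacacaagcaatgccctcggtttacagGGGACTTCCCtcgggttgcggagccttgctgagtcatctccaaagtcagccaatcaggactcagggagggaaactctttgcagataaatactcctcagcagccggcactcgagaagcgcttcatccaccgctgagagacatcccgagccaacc
Cx3cl1 promoter, chr8:94771930-94772229, plus strand: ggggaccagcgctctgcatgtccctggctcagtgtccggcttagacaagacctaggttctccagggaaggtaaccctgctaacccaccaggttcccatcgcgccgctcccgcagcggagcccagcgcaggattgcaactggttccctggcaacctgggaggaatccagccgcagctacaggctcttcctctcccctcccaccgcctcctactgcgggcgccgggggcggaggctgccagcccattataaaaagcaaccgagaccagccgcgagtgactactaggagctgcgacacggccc
Cxcl14 promoter, chr13:56296502-56296801, minus strand: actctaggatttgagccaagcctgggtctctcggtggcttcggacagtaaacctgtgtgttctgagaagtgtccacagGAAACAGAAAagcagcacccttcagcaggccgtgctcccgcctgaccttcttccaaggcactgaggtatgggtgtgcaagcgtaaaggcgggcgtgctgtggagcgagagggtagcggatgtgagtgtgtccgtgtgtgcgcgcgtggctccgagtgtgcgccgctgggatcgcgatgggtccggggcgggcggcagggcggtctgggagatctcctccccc
The Cxcl10 window held NF-kB matches at bases -159 to -150 and -103 to -94 from the start and an interferon match at -213 to -204. At the second of these places the NF-kB motif, with its free bases, matched on both strands. Cxcl14 held an interferon match at -172 to -163 from the start of its own window, a place within its gene span. The windows of Cx3cl1, Cxcl12 and Cxcr4 held neither. Of 32851 mouse promoter windows of this length, 4.01% held the NF-kB motif and 3.44% the interferon motif. A match describes letters and not binding, and Cxcl10, with the most matches, had among the fewest counts of the 8 genes.

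With age none of the 5 genes passed by edgeR. In KO, Xist was also higher at 12 months than at 3 months (1583 to 2519 counts against 2 to 18), so age and the sex of the tissue cannot be told apart in the KO comparison. Between 12 and 3 months 0 of 5 passed in either genotype, where 2.11% of all genes passed in control and 2.37% in KO. DESeq2 and limma-voom each called 1 gene in KO, Cxcl14, and 0 in control. At an unadjusted p below 0.05 (edgeR), 3 of 5 stood out in control (Cxcl12, Cxcl14 and Cxcl16) and 3 of 5 in KO (Cx3cl1, Cxcl14 and Cxcr4), against 12.5% and 13.3% of all genes, and all 6 values were lower at 12 months. The same genes had 12-month values below all 3-month values, as 8.29% of all genes did in control and 11.5% in KO. Cxcl14 averaged 78.4 ± 2.28 scaled CPM at 12 months and 95.5 ± 7.41 at 3 months in KO (SD, n = 3 each), a log2 fold change of -0.28 ± 0.08 (SE; 95% interval -0.44 to -0.13; edgeR adjusted p = 0.055). In control it averaged 79.7 ± 5.37 scaled CPM at 12 months and 90.9 ± 4.02 at 3 months (log2 fold change -0.19 ± 0.08, SE, edgeR adjusted p = 0.27). The adjusted p of Cxcl14 in KO ran from 0.00175 to 0.284 over 16 alternatives, and 7 of them called it lower, among them those without replicate 2 of 3-month KO (0.0483) or replicate 1 of 12-month KO (0.0497). In control Cxcl14 was called (adjusted p = 0.0368, edgeR) under 1 of 16, that without replicate 1 of 12-month KO and replicate 2 of 3-month control.

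The other age values were smaller or less certain. Cx3cl1 had a log2 fold change with age of -0.18 ± 0.07 in KO and -0.04 ± 0.07 in control (SE, edgeR adjusted p = 0.24 and 0.91). Cxcl12 had 0.09 ± 0.11 in KO and -0.23 ± 0.11 in control, and Cxcl16 had 0.06 ± 0.13 and -0.30 ± 0.13 (SE). Cxcr4 had -1.11 ± 0.50 in KO and 0.09 ± 0.44 in control (SE, edgeR adjusted p = 0.33 and 0.97). Ccl5 and Cxcl10 went the other way in KO. Ccl5 had 6 counts in each 12-month KO library, against 0, 3 and 0 counts at 3 months, and Cxcl10 had 2, 6 and 2 counts, against 0, 1 and 0. In both the groups did not overlap, as 6% of genes with 10 to 50 counts did in that direction (exact permutation p = 0.1 for each). Pericyte and smooth muscle markers, of cells that can make Cxcl12, summed to 57.4 to 66.0 scaled CPM in 12-month control against 68.9 to 88.1 in 3-month control. In KO they summed to 52.9 to 63.1 at 12 months against 68.7 to 71.1 at 3 months. With age 1 of the 9 passed by edgeR in control and 0 in KO, against 2.11% and 2.37% of all genes. That gene, Rgs5, fell (log2 fold change -0.61, DESeq2 adjusted p = 0.00385), and the edgeR call ended when single libraries were left out (adjusted p up to 0.145). Acta2 had 117, 371 and 122 counts in 3-month control, highest in the replicate that stood apart. The part of these markers in the Cxcl12 values was not tested.

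The rest of the chemokine system was described by lists chosen with earlier results of these data known. No gene of the 6 lists of other CC ligands, other CXC and XC ligands, receptors, atypical receptors, processing enzymes and receptor signalling passed in any of the 5 comparisons by edgeR. Both other tools called 1 receptor with age in control, and limma-voom alone called 1 enzyme and 2 signalling genes with age in KO and 1 signalling gene with age in control. For KO against control at 12 months these were 0 of 6 other CC ligands tested of 22, 0 of 1 other CXC or XC ligand of 12, 0 of 5 other receptors of 18, 0 of 3 atypical receptors of 5, 0 of 7 processing enzymes and 0 of 13 signalling genes of 14. DESeq2 and limma-voom called 0 of them at 12 months too. An unadjusted p below 0.05 (edgeR) was seen for 2 of 7 processing enzymes and 1 of 13 signalling genes, against 8.7% of all genes. The median log2 fold changes of the 6 lists were 0.06, -0.66, -0.17, -0.03, -0.04 and -0.04, against -0.002 for all genes tested. The most abundant other CC ligands were Ccl25 (3.78 ± 0.694 scaled CPM in 12-month KO and 3.39 ± 0.377 in 12-month control) and Ccl27a (1.61 ± 0.0333 and 2.02 ± 0.385, SD, n = 3). Ccl9, named after its values were seen, had 39, 31 and 33 counts in 12-month KO, against 12, 23 and 18 in 12-month control (log2 fold change 0.95 ± 0.48, SE, edgeR adjusted p = 0.59). Cxcl13, a B cell attractant, had 12, 14 and 12 counts in 12-month KO and 15, 22 and 23 in 12-month control. The receptors Ccr10 (-0.17 ± 0.23, SE) and Cx3cr1 did not pass. Ackr1, an atypical receptor of vessels and red cells, was listed at 98.7 ± 15.4 scaled CPM in 12-month KO and 100.6 ± 6.51 in 12-month control (SD, n = 3). It overlaps the neighbouring gene Cadm3 over 493 bases on the same strand, so its reads are uncertain. Of the proteases, Adam10, which sheds Cx3cl1 and Cxcl16 from the membrane, had a log2 fold change of 0.26 ± 0.10 and Bace1 of -0.11 ± 0.09 (SE, edgeR adjusted p = 0.50 and 0.74). The G protein subunits Gnb1 (0.01 ± 0.06) and Gnai2 (-0.01 ± 0.08, SE) did not pass.

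Genes that accompany chemokines in inflammation were also examined. Of 14 NF-kB targets tested, 0 passed for KO against control at 12 months (median log2 fold change -0.01), among them Tnfaip3 (-0.01 ± 0.08) and Sod2 (-0.04 ± 0.07, SE). An unadjusted p below 0.05 (edgeR) was seen for 1 of the 14, against 8.7% of all genes, and DESeq2 and limma-voom called 0. Of 19 interferon-inducible genes 1 passed, where 0.212% of all genes did by edgeR. The 1 that passed fell in KO retina. That gene, Irf7, a transcription factor of interferon responses, had 146 ± 17.8 scaled CPM in KO and 221 ± 35.6 in control (SD, n = 3 each; log2 fold change -0.60 ± 0.10, SE, edgeR adjusted p = 0.011). The call ended without replicate 2 of 12-month control (adjusted p = 0.0927), without replicate 2 (0.0736) or 3 (0.0871) of 12-month KO and with the compared libraries alone (0.0708). Of 14 cytokines and their receptors 0 passed at 12 months by edgeR, and 1 by DESeq2 and by limma-voom. By edgeR 2 had an unadjusted p below 0.05, against 8.7% of all genes. Of the 14, 12 had a positive log2 fold change, with a median of 0.21 against -0.002 for all genes tested. Signs also leaned in a list above: 10 of 13 receptor signalling genes had a negative log2 fold change. The 2 with the highest mean were Ifnar1 (0.00 ± 0.07) and Il33 (0.28 ± 0.13, SE). Lif, a neuroprotective cytokine of the retina, was named after its values were seen and had the smallest adjusted p (log2 fold change 1.33 ± 0.32, SE, edgeR adjusted p = 0.10). Lif was the gene called by DESeq2 (adjusted p = 0.0234) and limma-voom (0.0202), and edgeR called it without the libraries that stood apart (0.0261), while its adjusted p over the 16 alternatives reached 0.435. At 3 months 0 genes of these 3 lists passed by edgeR, with medians of -0.06, 0.02 and -0.06, while limma-voom called 1 NF-kB target and DESeq2 0. The unadjusted p (edgeR) was below 0.05 for 1 of 14, 0 of 19 and 3 of 14, against 7.5% of all genes. Between the KO effects at the 2 ages 0 genes of the lists passed by edgeR, 0 by DESeq2 and 1 interferon-inducible gene by limma-voom. Unadjusted, 1, 1 and 2 genes had p below 0.05 (edgeR), against 4.33% of all genes.

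With age these lists gave a few calls. In KO, 1 of 14 NF-kB targets, 1 of 19 interferon-inducible genes and 1 of 14 cytokines and receptors passed by edgeR. In control 1, 1 and 0 passed. Of all genes tested, 2.37% passed in KO and 2.11% in control. The median log2 fold changes of the 3 lists were 0.09, 0.32 and 0.36 in KO, against -0.0007 for all genes. In control they were -0.02, 0.32 and 0.16, against 0.0016. Irf7 rose at 12 months against 3 months in KO (log2 fold change 1.16) and in control (1.75). In KO the adhesion molecule gene Icam1 rose (log2 fold change 1.88, edgeR adjusted p = 0.016), and so did Lif (1.27, edgeR adjusted p = 0.033). Icam1 had 60 to 95 counts in 12-month KO against 20 to 24 in 3-month KO. In control Nfkbia, which encodes the NF-kB inhibitor IkB-alpha, fell (-0.40, edgeR adjusted p = 0.019). Of these age calls, that of Irf7 in KO held under all 16 alternatives and that in control under all 16, while those of Icam1, Lif and Nfkbia ended when single libraries were left out, with adjusted p up to 0.103, 0.174 and 0.103. The Nfkbia call also ended with the compared libraries alone (adjusted p = 0.0719). The calls in KO carry the same limit of age and sex as above.

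Markers of the cells that receive these signals were summed. The 12 microglia markers summed to 67.3 to 71.7 scaled CPM in 12-month KO against 63.6 to 66.6 in 12-month control, and to 53.1 to 53.7 in 3-month KO against 49.0 to 51.1 in 3-month control. None of the 11 tested passed between genotypes by edgeR at either age, and DESeq2 and limma-voom called 0. An unadjusted p below 0.05 (edgeR) was seen for 1 at 12 months and 0 at 3 months, against 8.7% and 7.5% of all genes. With age the complement genes C1qc (log2 fold change 0.66 in KO and 0.78 in control, edgeR adjusted p = 0.0336 and 0.0128) and C1qa in KO (0.77, edgeR adjusted p = 0.00134) rose. These were 2 of 11 markers in KO and 1 of 11 in control, against 2.37% and 2.11% of all genes. In each genotype 10 of the 11 had a positive log2 fold change with age (medians 0.23 in KO and 0.43 in control). An unadjusted p below 0.05 (edgeR) was seen for 4 in KO and 7 in control, against 13.3% and 12.5% of all genes. The C1qc call in KO ended without any 1 of the 6 KO libraries (adjusted p up to 0.21), and that in control without replicate 3 of 3-month control or 1 of replicates 1 and 2 of 12-month control, where it reached at most 0.101, or with the compared libraries alone (0.071). Of 16 leukocyte markers, 5 had no count in 12-month KO and 6 in 12-month control. Ms4a1, Nkg7 and Klrb1c, which define B, cytotoxic T and NK cells, had no count in any library, and Cd3e had 2 counts in 1 library of 12-month KO.

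In the authors' deposited table for KO against control at 12 months, none of the 8 genes has an adjusted p below 0.05. The authors' deposited table gives log2 fold changes, apparently shrunken, of 0.19 for Cxcl12 (adjusted p = 0.53), -0.11 for Cx3cl1 (0.75), -0.10 for Cxcr4 (0.67), 0.08 for Cxcl16 (0.93), -0.02 for Cxcl14 (0.98) and 0.01 for Ccl5 (0.98). For Cxcl10 and Ccl2 the authors' deposited table lists unadjusted p = 0.12 and 0.13 (DESeq2) and no adjusted value.

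The genes whose log2 CPM followed each tested gene most closely over the 12 libraries were named by Pearson r, as a description in which all points share the 4 groups. For Cx3cl1 they were Ldb1 (0.94), Atn1 (0.94) and Ccnjl (0.92). Cxcl12 was followed by Snhg17 (0.92), Ribc2 (0.91) and Kctd12b (0.90), and Cxcl14 by Pask (0.92), Apobec2 (0.90) and Elovl5 (0.90). Cxcl16 was followed by Als2cl (0.90), Sapcd1 (0.89) and 2310030G06Rik (0.87), and Cxcr4 by Vangl2 (0.92), Sec14l1 (0.91) and Slc25a23 (0.90). Without replicate 2 of 3-month control the r of Cxcl16 was 0.86 with Als2cl, 0.81 with Sapcd1 and 0.76 with 2310030G06Rik.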

How the data were processed

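Messenger RNA of whole retina was selected by poly(A) and prepared with a strand-marking kit, per the labels' protocols. The submitters' processing notes name HISAT2 2.1.0, featureCounts 1.6.4, DESeq2 1.22.1 and GRCm38. For each library the authors deposited raw counts per Entrez ID, and RefSeq gave names to 25275 of the 27179 IDs. A headerless table of the 12-month comparison was deposited by the authors as well. Its columns were read from their values as a mean normalized count (a signal never below 0), a log2 fold change with its standard error, a Wald score, a p-value and an adjusted p-value deposited by the authors.

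Counts were filtered with filterByExpr (minimum count 10), which kept 16475 genes, scaled by TMM and fitted with edgeR 4.0.16 (robust quasi-likelihood test, 1 coefficient per group, all 12 libraries) in R 4.3.3, with Benjamini-Hochberg adjustment over all genes. Intervals are 95%. Genes below the filter were tested by exact permutation on log2(scaled CPM + 0.5). Log2 CPM for likeness used a prior count of 2. Each model was tested on simulated data. Alternatives were RLE and upper quartile factors, DESeq2 1.42.0, limma 3.58.1 (voom), other filters, the compared libraries only, a replicate block, halved counts and each library left out; the removal of both libraries that stood apart, and the union of exons as a length, were added once values had been seen. All 8 genes, the lists and the marker genes were chosen with earlier results of these data known. The text names all 8 genes, the genes of each list that passed (up to 4) or the 2 with the highest mean where none did, and the 3 genes most like each. Gene coordinates came from RefSeq and transcript lengths from GENCODE M21, both of GRCm38, since RefSeq gave only gene spans.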

Additional observations from a re-analysis of the deposited data

How the results depend on the processing

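No member was called for KO against control at either age, or for the difference between the KO effects, under any alternative run. With age 1 gene, Cxcl14, was called in KO under DESeq2, limma-voom, the compared libraries alone, the replicate block and the removal of both libraries that stood apart, and 0 to 1 with 1 library left out. The removal of both called 1 in control. The sign of the 12-month KO fold change held for the 5 genes except Cxcl14 (-0.08 to 0.02). Same-numbered libraries did not deviate together (correlations from -0.082 to 0.044), so the replicate block pairs nothing known.

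Genes called, in the order KO against control at 12 and 3 months, age in control, age in KO and difference of KO effects, numbered 35, 37, 347, 390 and 21 in the reported fit. DESeq2 called 127, 63, 583, 596 and 41, limma-voom 186, 79, 773, 1319 and 50, and without both libraries that stood apart the counts were 421, 58, 1040, 1069 and 50. No filter gave 64 at 12 months, and the compared libraries alone 198 for age in control. With 1 library left out the counts ran from 13 to 52, 21 to 41, 201 to 440, 187 to 367 and 14 to 29. The causes were not tested. Counts of 0 to 8 limit what Ccl2, Ccl5 and Cxcl10 can show.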
